A study of Homo sapiens with 4 samples.

Results

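The nuclear genes that encode subunits of the respiratory chain and of ATP synthase were compared between MDA-MB-231, a human line of triple-negative breast cancer, and LM2-4175, a line derived from it that metastasizes to the lung. A gene was counted as a member when its name began as those of subunits of complex I (NDUFA, NDUFB, NDUFC, NDUFS and NDUFV), complex II (SDHA to SDHD), complex III (UQCR), complex IV (COX4 to COX8) or complex V (ATP5) and did not end like that of a pseudogene. Members were further selected on the measured level, a mean of the FPKM values of both cell lines of at least 1, so their presence in the set is no finding about expression. FPKM (fragments counted per kilobase of transcript, relative to all fragments mapped) is a level per length. Values of different genes can thus be set side by side only roughly, and the order of genes within a complex was not tested. Of the 57815 genes in the table, 88 had such a name, and 79 of them passed the level. These 79 genes carry 77 symbols, because NDUFB8 and UQCR11 each have a further row, which lies wholly over exons of other genes.

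Both cell lines were untreated and were grown in the same medium, and LM2-4175 is 1 line selected for metastasis to the lung. RNA was sequenced from 2 libraries per cell line, 4 in all, and the labels do not say whether these came from separate cultures. The deposited table combines the libraries of each cell line in 1 value with a lower and an upper bound. From these values, a difference between the cell lines therefore has no replicate check, and no SD and no p-value can be given. The paper tested differences between the cell lines with Cuffdiff, at 1.5-fold and a limit on the adjusted p-value. The calls made here follow another rule and are not those of the paper. A gene was called here when FPKM + 1 differed by 1.5-fold or more and the authors' bounds for the cell lines lay apart. Bounds apart alone gave the same calls, 564 genes higher and 597 lower in LM2-4175, so the bounds decided them. A gene that was not called can therefore differ by more than 1.5-fold. The bounds of the members lay at a median of 27.7% of the level in MDA-MB-231 and 27.3% in LM2-4175. In these bulk values, fewer cells with an RNA and less RNA per cell cannot be told apart.

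Complex I takes electrons from NADH and complex II takes them from succinate, and both pass them to ubiquinone. Complex III hands the electrons to cytochrome c, and complex IV hands them to oxygen. Complexes I, III and IV pump protons across the inner mitochondrial membrane, and complex V, ATP synthase, lets the protons back through its membrane ring and makes ATP. Most subunits are encoded in the nucleus and imported, whereas a few membrane subunits of complexes I, III, IV and V are encoded in mitochondrial DNA, so both genomes are needed to build these complexes. Many promoters of nuclear subunit genes are known to be bound by the factors NRF1, GABPA (an ETS factor, also named NRF2) and YY1.

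The promoters of the members are shown first, since the factors that bind them are the best known feature that these genes have in common. Promoters of 300 bases, from 250 before to 50 after the start, were taken from RefSeq (GRCh38.p14) for 63 of the 79 members. The letters GCATGCGC, the core of NRF1 sites, were found on either strand in 13 of the 63 (20.6%), against 3.27% of all 27305 promoters of the same length and 5.74% of the 9846 promoters of genes tested here. The YY1 letters AAGATGGC were found in 11 (17.5%), against 3.03% of all promoters and 5.67% of those of genes tested. The ETS letters CCGGAAG were found in 19 (30.2%), against 10.7% and 20.4%. The SP1 letters GGGCGG were found in 60.3% of the member promoters, against 44.6% of all promoters and 71.2% in genes tested. The TATA letters TATAAA were found in 6 (9.52%), against 12.0% of all promoters and 5.14% of those of genes tested. In the shorter window of 150 bases before the start, YY1 letters stood in 1.59% of member promoters and 1.16% in genes tested, so their excess lies outside that window, while NRF1 letters stood in 12.7% and 4.09%. None of these strings of letters contains another, and a match is a description of the sequence, not a binding site.

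**Figure D1:**
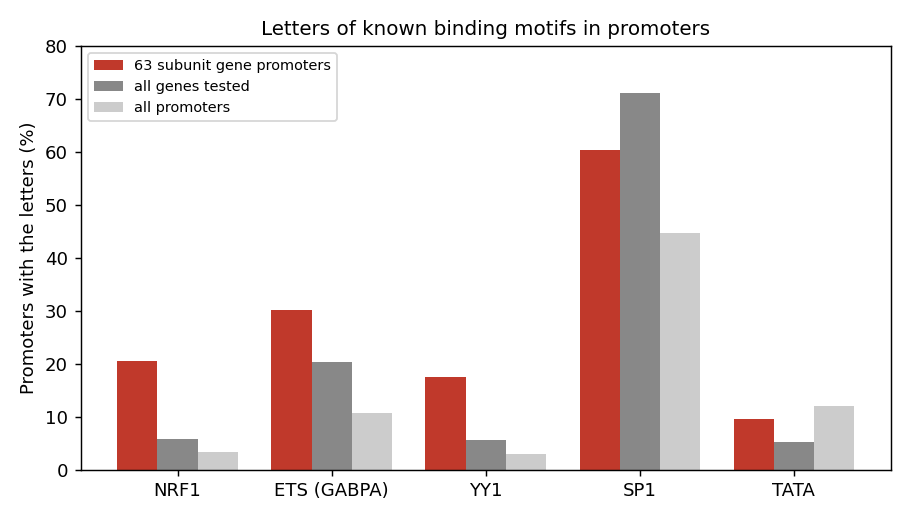
Percent of promoters (y axis) that hold the letters of each motif (x axis) on either strand, for 63 subunit gene promoters, promoters of all genes tested and all RefSeq promoters. The NRF1 letters stand in 20.6% of the subunit gene promoters against 5.74% in genes tested, and the YY1 letters in 17.5% against 5.67%, nearly all of them outside the 150 bases before the start.

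The 250 bases before the start are printed 5′ to 3′ for the members on which the comparison turns: SDHA and ATP5A1, the members called lower in LM2-4175, COX7C, which had the largest increase, and SDHB and ATP5J, whose windows hold the letters of NRF1, ETS and YY1 together. Capitals mark the letters of the motifs. In SDHA, which held none of them, capitals mark the letters GCGCAGGC described after the sequences.
SDHA (chr5:218070-218319, plus strand): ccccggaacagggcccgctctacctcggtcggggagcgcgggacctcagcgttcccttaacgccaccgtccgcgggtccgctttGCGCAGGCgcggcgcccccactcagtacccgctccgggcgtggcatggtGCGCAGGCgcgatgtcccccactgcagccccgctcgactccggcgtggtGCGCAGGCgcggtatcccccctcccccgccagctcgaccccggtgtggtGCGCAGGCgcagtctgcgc
ATP5A1 (chr18:46104228-46104477, minus strand): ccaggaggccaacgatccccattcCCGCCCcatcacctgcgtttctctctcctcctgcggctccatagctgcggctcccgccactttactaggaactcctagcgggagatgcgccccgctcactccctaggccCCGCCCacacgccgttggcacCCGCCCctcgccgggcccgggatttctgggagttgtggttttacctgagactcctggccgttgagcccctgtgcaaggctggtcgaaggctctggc
COX7C (chr5:86617691-86617940, plus strand): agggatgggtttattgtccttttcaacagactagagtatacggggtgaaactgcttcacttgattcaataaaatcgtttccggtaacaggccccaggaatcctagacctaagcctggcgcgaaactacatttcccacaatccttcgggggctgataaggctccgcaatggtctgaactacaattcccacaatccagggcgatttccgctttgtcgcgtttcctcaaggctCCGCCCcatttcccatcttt
SDHB (chr1:17054033-17054282, minus strand): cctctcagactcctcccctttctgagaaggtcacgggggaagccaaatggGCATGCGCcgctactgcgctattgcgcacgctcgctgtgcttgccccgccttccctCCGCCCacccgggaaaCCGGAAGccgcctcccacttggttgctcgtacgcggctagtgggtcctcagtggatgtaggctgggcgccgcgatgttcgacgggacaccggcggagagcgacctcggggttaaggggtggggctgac
ATP5J (chr21:25735055-25735304, minus strand): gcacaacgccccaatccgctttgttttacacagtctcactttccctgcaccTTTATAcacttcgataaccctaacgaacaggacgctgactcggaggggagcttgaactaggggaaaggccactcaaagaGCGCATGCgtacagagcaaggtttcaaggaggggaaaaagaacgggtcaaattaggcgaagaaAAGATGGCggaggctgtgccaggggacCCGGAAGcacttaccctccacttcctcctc

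In the promoter of SDHB, NRF1 letters start 200 bases and ETS letters 128 bases before the start, and YY1 letters lie after it, outside the printed bases. In ATP5J, which lies head to head with the gene of GABPA itself, NRF1 letters start at 120, YY1 letters at 57 and ETS letters at 30 bases before the start. ATP5A1 held only SP1 letters, at 3 places, and COX7C held them at 1. The letters GCGCAGGC, searched because they were seen in SDHA, stand there 4 times. They occur at all in 5.51% of 27305 upstream windows and 4 or more times in 6 windows. The median log2 fold change between the cell lines was -0.13 for the 13 members with NRF1 letters and -0.14 for the 50 without them. The 19 with ETS letters had -0.18 and the 44 without them -0.13. The 11 members with YY1 letters had -0.13 and the 52 without them -0.17. The gap was widest for SP1, with -0.09 for the 38 members with its letters and -0.19 for the 25 without them. The 6 with TATA letters had -0.15 and the 57 without them -0.13. The 30 members with 0 of the NRF1, ETS and YY1 letters had -0.17, and the 25 with 1 of them had -0.05. The 6 with 2 had -0.24 and the 2 with 3 had -0.22. These gaps were not tested.

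The members were among the higher genes of both cell lines. Their median level was 111 FPKM in MDA-MB-231 and 88.9 FPKM in LM2-4175, where all genes tested had 14.1 and 13.5 FPKM. In MDA-MB-231, 45 of the 79 members lay in the top 10% of genes tested, and 43 did in LM2-4175. Together the members held 1.77% of the FPKM sum of MDA-MB-231 and 1.64% of that of LM2-4175. The order of the members was nearly kept between the cell lines, with a Pearson r of 0.97 and a Spearman rho of 0.96 over the 79 genes on the log2 scale. These points share the libraries and the gene models, so the values describe the likeness of the cell lines only.

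Within a complex the genes were listed at different levels. In complex I, levels in MDA-MB-231 ran from 17.6 FPKM for NDUFV3, an accessory subunit of the NADH-oxidizing part, the further row of NDUFB8 at 1.56 FPKM left aside, to 311 FPKM for NDUFS5. In complex IV, COX8A was highest at 663 FPKM and COX7B lowest at 31.9 FPKM. The 4 genes of complex II were closest to each other, from 80.2 FPKM for SDHC to 118 FPKM for SDHD, and the bounds of neighbours in that order overlapped. In complex V, ATP5J2 (subunit f) was highest at 775 FPKM, but its bounds ran from 168 to 1382 FPKM. Of the genes with bounds within 50% of the level, ATP5B, the catalytic beta subunit, was highest there, at 461 FPKM with bounds of 351 and 570.2.

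**Figure D2:**
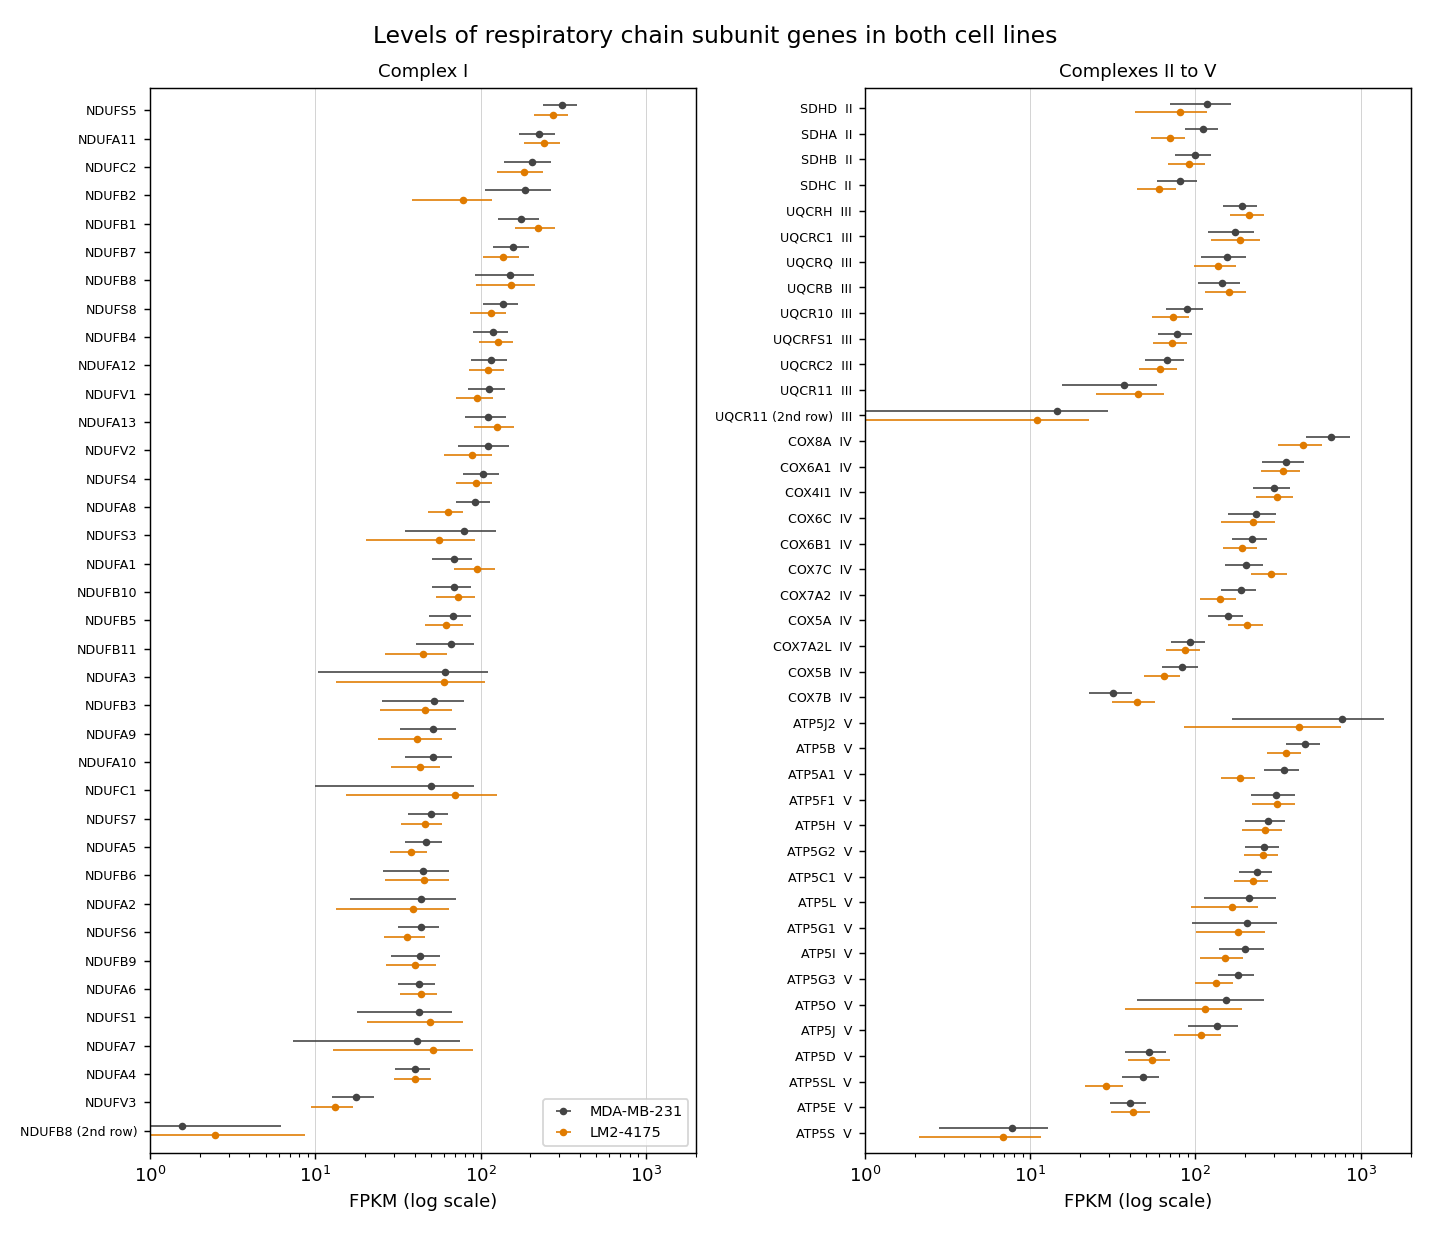
FPKM (x axis, log scale) of the members reported in MDA-MB-231 (grey) and LM2-4175 (orange), with complex I on the left and complexes II to V on the right; lines are the lower and upper bounds of the authors, cut at 1 FPKM. ATP5A1 (343 against 186 FPKM) and SDHA (112 against 70.0 FPKM) are the members whose bounds lie apart.

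Between the cell lines, no member was called higher in LM2-4175 and 2 of 79 (2.53%) were called lower, ATP5A1 and SDHA. Only ATP5A1 was called when the cell lines were scaled to the same sum or centred on the median of all genes. Of all 12732 genes tested, 4.43% were called higher and 4.69% lower, and of the 7544 with a mean of at least 10 FPKM, 2.81% and 4.73%. The members' share of lower calls is thus below that of all genes, so the calls do not set the members apart from other genes. By the fold of FPKM + 1 alone, 0 members were at least 1.5-fold higher and 5 (6.33% of the members, both directions together) at least 1.5-fold lower. Over all genes tested, 9.95% were at least 1.5-fold higher and 12.0% lower, and at 10 FPKM or more 6.14% and 11.4%. The remaining 74 members lay within 1.5-fold on that scale. Without the added 1, the further row of NDUFB8 (1.56 and 2.48 FPKM, with lower bounds of 0) had a ratio of 1.59.

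Small differences leaned to one side. The value was lower in LM2-4175 for 54 of the 79 members (68.4%), which compares with 55.6% of all genes tested and 60.5% of those at 10 FPKM or more. The median log2 fold change was -0.13 over the members, -0.05 over all genes tested and -0.09 over those at 10 FPKM or more. When both cell lines were scaled to the same FPKM sum, the median was -0.05 for the members and 0.02 for all genes tested, and 59.5% of the members were lower. The members' median standard error, read from the bounds, was 0.28, so most single differences were smaller than their own error. The summed level of the members was 11205 FPKM in MDA-MB-231 and 9799 FPKM in LM2-4175, a ratio of 0.874, while the sum over all genes tested had a ratio of 0.945. The largest value in the sum of MDA-MB-231 was that of ATP5J2, at 775 FPKM against 424 FPKM in LM2-4175, and its bounds are wide.

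**Figure D3:**
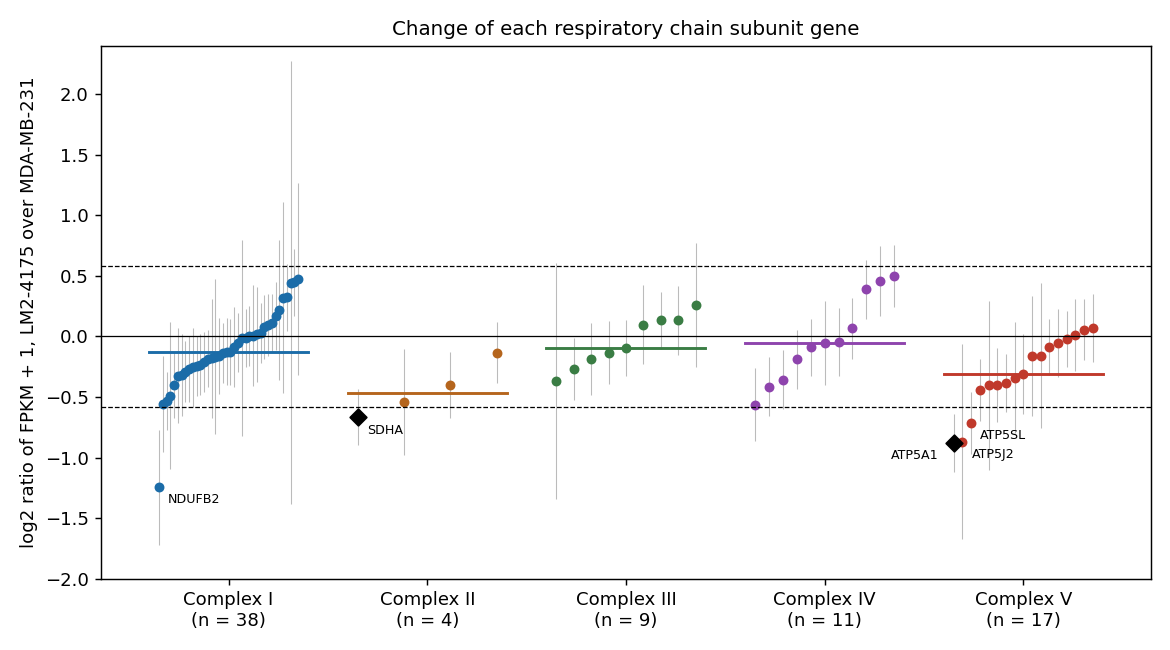
Log2 ratio of FPKM + 1 in LM2-4175 over MDA-MB-231 (y axis) for each member, ordered within its complex (x axis); grey lines are 1 standard error read from the bounds, coloured lines the medians, dashed lines 1.5-fold and black diamonds the members called. All 4 genes of complex II and 14 of 17 of complex V lie below 0, and no gene lies above the upper dashed line.

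ATP5A1 and ATP5B encode the alpha and beta subunits, which alternate in the head of ATP synthase and form its catalytic sites. ATP5A1 (chromosome 18, 43660214 to 43684300, minus strand, GRCh37; now named ATP5F1A) was listed at 343 FPKM (bounds 261 and 425) in MDA-MB-231 and at 186 FPKM (142 and 230.05) in LM2-4175. The upper bound of LM2-4175 lies below the lower bound of MDA-MB-231, and the log2 fold change was -0.88 ± 0.24 (SE from the bounds). No exon of ATP5A1 is overlapped by another gene, and 3.13% of its 50-base words occur in another gene. ATP5B had 461 FPKM (351 and 570.2) and 353 FPKM (271 and 435), a log2 fold change of -0.38 with overlapping bounds. The other genes of the head and the central stalk had nearly equal values. ATP5C1 (gamma) had 236 and 222 FPKM, ATP5D (delta) 52.1 and 54.7 FPKM, and ATP5E (epsilon) 40.3 and 41.9 FPKM.

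In the membrane part of ATP synthase, all 3 genes of the c subunit had lower values in LM2-4175, and none was called. These genes encode the same mature protein of the rotating ring with different import sequences. ATP5G3 had 182 FPKM (136 and 227) in MDA-MB-231 and 133 FPKM (99.0 and 168) in LM2-4175, ATP5G1 had 204 and 182 FPKM, and ATP5G2 had 259.7 and 256 FPKM. ATP5G2 was thus the highest of the 3 in both cell lines, although the bounds of the genes overlap. Subunits e, f and g, which hold ATP synthase dimers together, had the lowest summed ratio of these groups, 0.625, which rests on ATP5J2. ATP5J2 (subunit f) had 775 FPKM (168 and 1382) and 424 FPKM (85.8 and 762), a log2 fold change of -0.87 ± 0.81 that is about as large as its error. ATP5I (subunit e) had 199 and 151 FPKM and ATP5L (subunit g) 211 and 167 FPKM. The 4 genes of the peripheral stalk, which keeps the head from turning, had a median log2 fold change of -0.18, from -0.40 for ATP5O to 0.01 for ATP5F1. ATP5O, the OSCP subunit that joins stalk and head, had 152 FPKM (44.4 and 260.1) and 115 FPKM (37.6 and 192), and ATP5J (F6) had 135 FPKM (89.6 and 180.5) and 109 FPKM (74.0 and 143). ATP5H (d) had 274 and 264 FPKM.

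ATP5SL and ATP5S match the name rule of complex V, but their products are not subunits. ATP5SL, now named DMAC2, takes part in the assembly of complex I, and ATP5S is now named DMAC2L. ATP5SL had 48.2 FPKM (36 and 60.4) in MDA-MB-231 and 29.0 FPKM (21.5 and 36.4) in LM2-4175, a log2 fold change of -0.72 ± 0.25, with bounds that overlap narrowly. ATP5S had 7.82 and 6.90 FPKM. Over all 17 genes of complex V the median log2 fold change was -0.31. The summed level was 3888 FPKM in MDA-MB-231 and 3003 FPKM in LM2-4175, a ratio of 0.773. Without the rows with bounds over 50% of the level, ATP5J2 among them, the ratio was 0.828.

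Complex II is also the succinate dehydrogenase of the tricarboxylic acid cycle and has no subunit encoded in mitochondrial DNA. Its 4 genes all had lower values in LM2-4175, and 1 was called. SDHA (chromosome 5, 218418 to 257197, plus strand, GRCh37), which encodes the flavoprotein that oxidizes succinate, had 112 FPKM (86.2 and 137) in MDA-MB-231 and 70.0 FPKM (53.9 and 86.0) in LM2-4175. Its log2 fold change was -0.67 ± 0.23, and the facing bounds of 86.2 and 86.0 FPKM were barely apart, so that the call was lost under either other scaling. Of the 50-base words of SDHA, 21.9% occur in other genes, and the pseudogene SDHAP1 was listed at 8.26 and 8.44 FPKM. The part of shared reads in the value of SDHA was not tested.

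SDHB, the iron-sulfur subunit, had 100.1 FPKM (75.1 and 125) and 91.2 FPKM (68.3 and 114), a log2 fold change of -0.13. The membrane anchors SDHC and SDHD bind ubiquinone and the heme of the complex. SDHC had 80.2 FPKM (58.7 and 102) and 60.5 FPKM (44.2 and 76.8), and SDHD had 118 FPKM (70.1 and 165) and 80.6 FPKM (43.4 and 118), with log2 fold changes of -0.40 and -0.54. The bounds of SDHB, SDHC and SDHD overlapped between the cell lines. The summed level of complex II was 409.8 FPKM in MDA-MB-231 and 302 FPKM in LM2-4175, a ratio of 0.738, the lowest of the 5 complexes. Without the members that have a pseudogene at 1 FPKM or more, SDHA among them, complex II had 0.779 and complex V was lower, at 0.752.

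Complex I gave 38 of the 79 members, and none was called. Values were lower in LM2-4175 for 24 and higher for 14, and the median log2 fold change was -0.13. The 7 core subunits, which carry the flavin and the iron-sulfur clusters, had lower values in 6 cases and a median of -0.23, from -0.49 for NDUFS3 to 0.22 for NDUFS1, while the other 31 rows had a median of -0.09. NDUFS3 had 79.4 FPKM (35.1 and 124) and 56.3 FPKM (20.2 and 92.5), and NDUFV1, which binds NADH, had 112 FPKM (84.3 and 139.6) and 95.0 FPKM (71.2 and 119). NDUFS7 and NDUFS8, which carry electrons to ubiquinone, had 50.1 and 45.8, and 136 and 115 FPKM. NDUFV2, a partner of NDUFV1, had 111 and 88.9 FPKM, and NDUFS1, the largest subunit, had 42.5 and 49.7 FPKM. The division into core and other subunits was made after the values had been seen.

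NDUFB2, an accessory subunit of the membrane arm, had the largest change of all members. It was listed at 187 FPKM (106 and 267) in MDA-MB-231 and at 78.2 FPKM (38.4 and 118) in LM2-4175, a log2 fold change of -1.24 ± 0.48, and was not called because the bounds overlap. Other genes, among them the antisense gene NDUFB2-AS1, overlap 35.9% of its exon bases (chromosome 7, 140390577 to 140422590, GRCh37). NDUFB11, whose gene lies on the X chromosome, had 66.2 and 44.7 FPKM, and NDUFA8 had 92.2 and 63.3 FPKM, with log2 fold changes of -0.56 and -0.54. Among the higher values, NDUFA1, also on the X chromosome and needed to build the membrane arm, had 69.3 FPKM (50.5 and 88.1) and 95.1 FPKM (68.6 and 122), a log2 fold change of 0.45 ± 0.28. NDUFC1 had 50.4 and 70.5 FPKM with bounds from 10.0 to 126 FPKM, NDUFB1 had 177 and 221 FPKM, and NDUFA7 had 41.1 and 51.5 FPKM. Other accessory genes at high levels stayed within 1.5-fold. NDUFS5 had 311 FPKM (240.0 and 383) and 274 FPKM (211 and 337), NDUFA11 had 226 and 242 FPKM, NDUFC2 had 204 and 182 FPKM, and NDUFB7 had 158 and 136 FPKM. NDUFA13, also known as the cell death regulator GRIM-19, had 112 and 125 FPKM. NDUFA4, which later work places in complex IV, had 39.9 and 40.1 FPKM.

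The 9 rows of complex III were the most alike in the cell lines, with 4 higher and 5 lower values and none called. Their summed level was 950.4 FPKM in MDA-MB-231 and 954.5 FPKM in LM2-4175. UQCRC1 and UQCRC2, the core proteins, had log2 fold changes of 0.10 and -0.13, and UQCRFS1, the Rieske iron-sulfur protein, had -0.09. UQCR10, a small subunit, had the lowest change among the rows with bounds within 50% of the level, from 88.8 FPKM (66.5 and 111) to 73.5 FPKM (55.0 and 92.0). The main row of UQCR11 was higher in LM2-4175, at 37.1 and 44.7 FPKM (log2 fold change 0.26), while the row that lies over exons of MBD3 and UQCR11 was lower, at 14.6 and 11.1 FPKM (-0.37). The rows share exons, so the division of reads between them is uncertain. UQCRB and UQCRQ, small subunits near the ubiquinone site, had 145 and 159, and 156 and 137 FPKM. UQCRH, the hinge protein, was the highest gene of complex III in both cell lines, at 192 and 211 FPKM.

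Complex IV held the largest increase of FPKM + 1, and none of its 11 genes was called. COX7C had 203 FPKM (151.5 and 255) in MDA-MB-231 and 288 FPKM (217 and 359) in LM2-4175, a log2 fold change of 0.50 ± 0.25. COX7B had 31.9 FPKM (22.6 and 41.2) and 44.2 FPKM (31.4 and 57.1), and COX5A had 157 FPKM (119.7 and 195) and 206 FPKM (157 and 255), with log2 fold changes of 0.46 and 0.39. These 3 are small nuclear subunits around the catalytic core, and all stayed within 1.5-fold. COX8A went the other way, from 663 FPKM (467 and 858) to 448 FPKM (317 and 579), a log2 fold change of -0.56 ± 0.30. COX7A2 and COX5B had -0.41 and -0.36. COX6B1 and COX6C were closer, at 219.5 and 192 FPKM and at 232 and 223 FPKM. The summed level of complex IV had a ratio of 0.931, and its median log2 fold change was -0.05, that of all genes tested.

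Several subunits of complex IV have a form that is used in heart and skeletal muscle, in testis or in lung, and these forms were at or near 0 in both cell lines. COX4I1 was listed at 297 and 311 FPKM, and its partner COX4I2, known from lung, at 0 in both cell lines. COX6A1 had 352 and 341 FPKM, and its muscle form COX6A2 was listed at 0 in both. COX7A2 had 189 and 141 FPKM, and its muscle form COX7A1 had 0.023 and 0.034 FPKM. The testis forms COX6B2 and COX8C had 0.080 and 0.10 FPKM, and 0 in both. COX7B2, also known from testis, was listed at 0.66 FPKM (0.081 and 1.24) in MDA-MB-231 and at 0 in LM2-4175. COX7B2 was the highest gene below the required mean of 1 FPKM, and the lowest rows above it were the further row of NDUFB8, with 1.56 and 2.48 FPKM, and ATP5S. COX7A2L, a relative of COX7A2 that joins complexes III and IV, had 92.7 and 87.0 FPKM.

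The subunits encoded in mitochondrial DNA were set beside the nuclear ones, because both are built into the same complexes. Of 13 such genes, 12 had a higher value in LM2-4175, the median log2 fold change was 0.31, and the summed level had a ratio of 1.24, against 0.874 for the nuclear genes. MT-ND6 was called higher, at 57.9 FPKM (42.5 and 73.4) and 159 FPKM (121 and 197), and MT-ND3 was the lower one, at 2510.1 and 1657 FPKM. MT-ND6 is the only one of these genes on the light strand, and whether strand was used in counting is not given in the sources used here. MT-ATP8 and MT-ND4L had lower bounds of 0. The nuclear and the mitochondrial subunits thus differed in the sign of their median, and this difference has no replicate check.

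The 4 genes of the carriers that bring electrons to the chain or move them along it had higher values in LM2-4175, and none was called. ETFB and ETFA, the subunits of the flavoprotein that takes electrons from fatty acid oxidation, had log2 fold changes of 0.64 and 0.47. ETFB had 42.5 FPKM (31.7 and 53.3) and 66.7 FPKM (50.5 and 82.8). CYCS, cytochrome c, had 151 and 159 FPKM. Nuclear subunits outside the name rule followed the members: CYC1, cytochrome c1 of complex III, had 139 and 95.4 FPKM (log2 fold change -0.54), and ATPIF1, C14orf2 and USMG5 of complex V had -0.21, -0.23 and -0.02. NDUFAB1 of complex I had 64 and 55.7 FPKM.

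Of the factors that assemble the complexes, none was called. The 14 factors of complex I had 8 higher and 6 lower values and a median log2 fold change of 0.02. The 23 factors of complex IV had 7 higher and 16 lower values and a median of -0.12, close to that of the members. SURF1 had 22.8 and 14 FPKM and COA6 50.3 and 31.4 FPKM, both past 1.5-fold with overlapping bounds, as was TTC19 of complex III on the higher side, with 20.1 and 32.5 FPKM. The medians for complexes II, III and V were -0.16, 0.11 and -0.09 over 4, 6 and 3 genes. Of 14 regulators of respiratory and mitochondrial genes tested, 1 was called lower. This was SSBP1, the single-strand binding protein of mitochondrial DNA, at 267 FPKM (206 and 329) and 144 FPKM (109 and 179). NRF1 had 10.5 and 6.82 FPKM, GABPA 10.5 and 8.02 FPKM and YY1 44 and 37.7 FPKM, all with overlapping bounds. On the higher side, POLG had 20.6 and 31.4 FPKM and POLRMT 11.2 and 17.2 FPKM, also with overlapping bounds. PPARGC1A, a coactivator of mitochondrial genes, was low at 0.65 FPKM (0.004 and 1.29) and 2.04 FPKM (1.03 and 3.04). Its log2 fold change of 0.88 was the only one of these regulators past 1.5-fold on the higher side, with bounds that overlap.

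Gene groups of other functions served for comparison. The mitochondrial ribosome, which makes the subunits encoded in mitochondrial DNA, had lower values for 62 of 75 genes, a median log2 fold change of -0.22 and 3 genes called lower, MRPS33 (-1.06), MRPS2 (-0.83) and MRPL41 (-0.81). The cytosolic ribosome had lower values for 52 of 80 genes and a median of -0.06. The tricarboxylic acid cycle had 8 of 14 lower, a median of -0.10 and OGDH, of the oxoglutarate dehydrogenase complex, called lower at 65.0 and 38.2 FPKM. Glycolytic enzymes had 12 of 17 lower and a median of -0.23. The member median of -0.13 lies within the range of these groups.

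**Figure D4:**
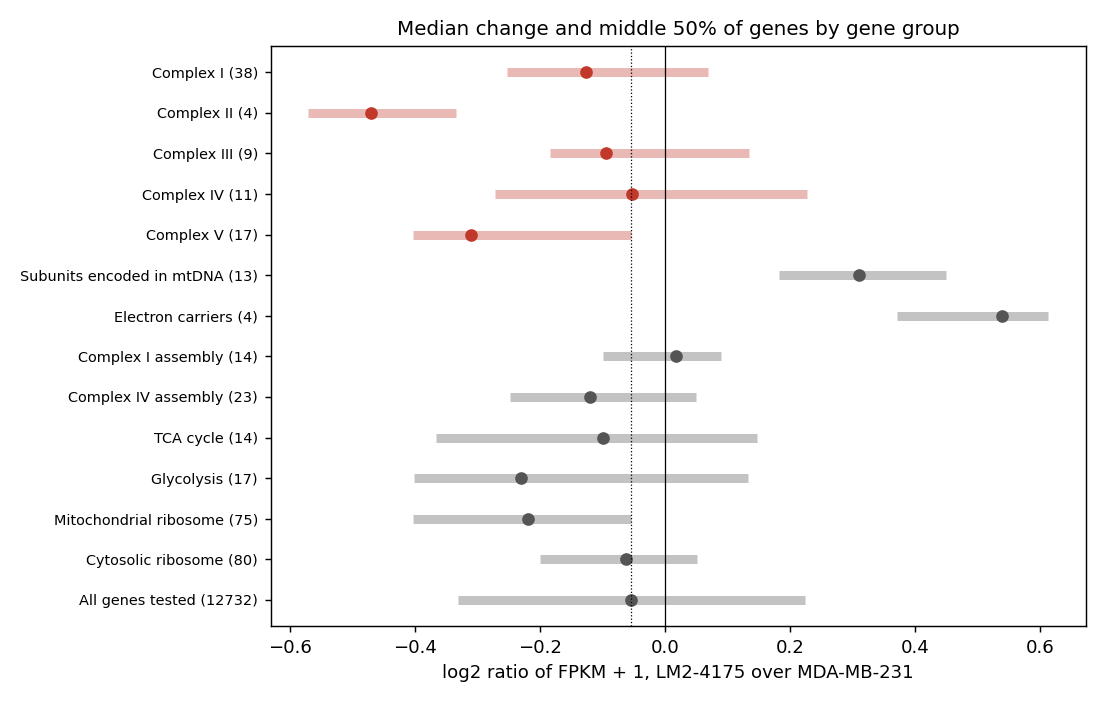
Median log2 ratio of FPKM + 1 in LM2-4175 over MDA-MB-231 (x axis, points) and the middle 50% of genes (bars) for each gene group (y axis, with the number of genes); complexes are red and the dotted line is the median of all genes tested. Complexes II and V lie lowest, at -0.47 and -0.31, and the subunits encoded in mitochondrial DNA lie at 0.31.

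The change of a member resembled that of the genes around it on its chromosome. For each member the median log2 fold change of the other protein-coding genes tested within 3 Mb was taken (4 to 149 genes). Over the 79 members, Pearson r with this median was 0.66 and Spearman rho 0.62, and 58 members (73.4%) had the sign of their neighbours. Members close to each other share neighbours, so these points are not independent. Over 11452 protein-coding genes r was 0.31 and 63.3% had the sign of their neighbours, and over 73 of the mitochondrial and the 80 cytosolic ribosomal protein genes r was 0.78 and 0.79. The likeness to neighbours is therefore no feature of the members alone.

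Of the 15 members whose neighbours had a median below -0.3, 14 had lower values in LM2-4175, with a median of -0.40. All 4 whose neighbours had a median above 0.3 had higher values. ATP5A1 lies among 11 genes with a median of -0.67, of which 10 had lower values. NDUFB2 lies among 27 genes with a median of -0.60, of which 24 had lower values and 8 were called lower, MRPS33 and SSBP1 among them. COX5A, among 46 genes with a median of 0.48, and NDUFA1, among 20 with a median of 0.38, are the counterparts on the higher side. Other members departed from their surroundings. COX7C was higher by 0.50 among 5 genes with a median of -0.46, and ATP5B was at -0.38 among 75 genes with a median of 0.06. SDHA had -0.67 among 14 genes with a median of -0.20. When the neighbour median was subtracted, the median of the members was -0.03. The part of the surrounding stretch in the change of a member was not tested.

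**Figure D5:**
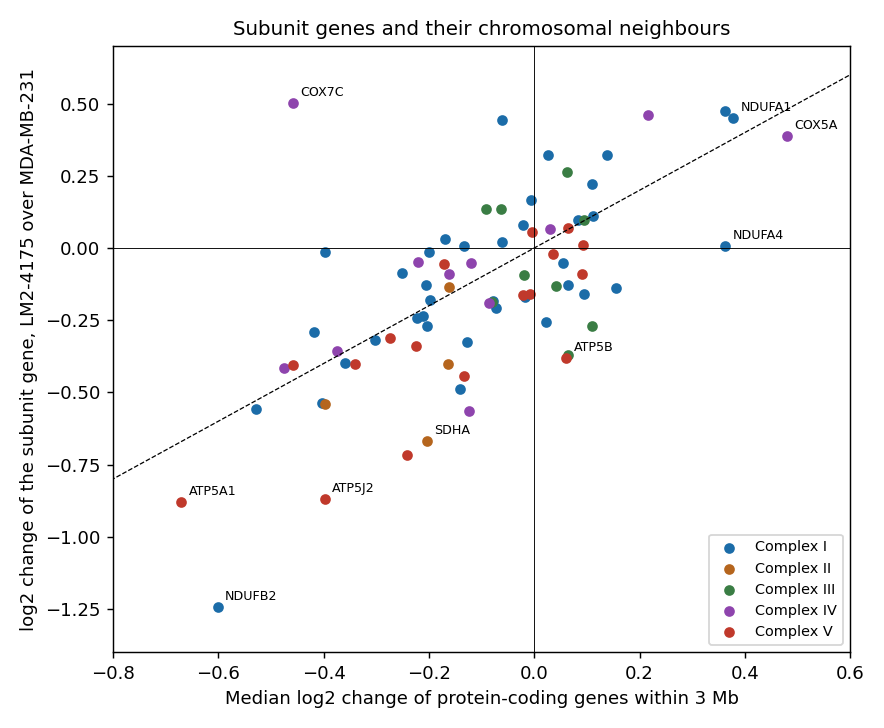
Log2 ratio of each member (y axis) against the median log2 ratio of protein-coding genes within 3 Mb (x axis), coloured by complex; the dashed line marks equal values. ATP5A1 and NDUFB2 lie at the lower left with their neighbours, COX5A and NDUFA1 at the upper right, and COX7C lies far above the line (0.50 against -0.46).

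Marker genes were checked for the labelled cell type. The mesenchymal marker VIM had 1355 and 1768 FPKM, and CD44 went the other way, with 470 and 355 FPKM. The bounds of the cell lines overlapped for VIM and for CD44. ESR1 and PGR, the hormone receptors that triple-negative cells lack, were at 0.033 FPKM or less in both cell lines. ERBB2, the further receptor that defines this class by its protein, had 35 FPKM (20.9 and 49.0) and 22.8 FPKM (12.8 and 32.7). Of 6 breast and mesenchymal markers tested, KRT8, KRT18 and EPCAM, epithelial genes, were called lower in LM2-4175. Of 8 white blood cell markers, CD14 was the only one with a mean of at least 1 FPKM, at 1.17 and 1.75 FPKM, and PTPRC had 0.077 and 0.026 FPKM.

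Reads of near-identical copies can be assigned to or taken from some members. Of 123 rows named as pseudogenes of members, 110 were listed at 0 in both cell lines, and SDHAP1 and ATP5F1P5 were the 2 with a mean of at least 1 FPKM. More than 10% of the 50-base words occurred in other genes for 7 members, with 37.1% for COX6A1, 33.4% for UQCRH, 18.0% for SDHC, 15.5% for UQCRFS1, 13.1% for NDUFV2 and 12.9% for SDHD beside SDHA. Exons of 45 members are overlapped by another gene, 4 of them by more than 50%. The 34 members without such overlap had a median log2 fold change of -0.13, that of all members.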

How the data were processed

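RNA-Seq of MDA-MB-231 and LM2-4175 (2 libraries per cell line) was analysed from 1 deposited table. Per the labels and the study's methods, the authors prepared TruSeq libraries, aligned paired reads of 150 bases to hg19 with TopHat 2.0 and ran Cufflinks and Cuffdiff on GENCODE 19 genes. The values that the authors deposited are FPKM, pooled over the libraries of a cell line, with lower and upper bounds. How libraries were normalized, and whether the bounds include variation among libraries, is not given in the sources used here, and the table holds no counts, so no depth was used here. limma had been planned for values per library and could not be run.

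Genes with a status of OK and a mean of at least 1 FPKM were tested, with changes on log2(FPKM + 1), which understates changes of low genes. Standard errors were taken as the upper bound minus the FPKM, divided by 2, and pass through a first-order approximation to the log scale. Positions and neighbours came from GENCODE 44 on GRCh37, matched by Ensembl ID. Python 3.11.15, NumPy 2.4.6, pandas 2.3.3 and Matplotlib 3.10.9 were used. The code for the calls was run on simulated data, with noise of the size that the bounds imply and no variation among libraries. That run checked the code and gives no error rate for the calls. The members and lists were chosen with earlier results of these data known. Named are members called or changed 1.5-fold, the 10 largest changes each way, the extremes of each complex, paralogs and called genes of other lists. The values of 1 member are not reported here. Others (such as SDHB, CYCS, NRF1 and the neighbour examples) were chosen after their values were seen.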

Additional observations from a re-analysis of the deposited data

How the results depend on the processing

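No paired analysis was possible because the table holds 1 pooled value per cell line, so a replicate block and leaving out a library could not be run. No member was called higher in LM2-4175 under any of the alternatives tried. In place of the 2 members called lower, the 1.5-fold alone took 5 of the 79 members (1 in complex I and 3 in complex V) and 2-fold with bounds apart took 0 (0 in complexes II and V). When the table was scaled to the same sum, as TPM, or centred on the median of all genes, 1 was called, ATP5A1, and 0 in complex II. Without the members that have a pseudogene at 1 FPKM or more, SDHA among them, 1 was called and 0 in complex II. With no filter on level, COX7B2 was called lower, 1 in complex IV. Its level was 0.66 FPKM in MDA-MB-231, and in LM2-4175 its value and both bounds were listed at 0. The call thus rests on bounds without width at a level near 0. The ratio of summed levels in complex I was 0.983 under TPM. In the shorter window of 150 bases, YY1 letters stood in 1.59% and SP1 letters in 46% of member promoters, against 1.16% and 61.3% in genes tested. The member median was -0.05 under TPM and -0.08 when centred, with 59.5% of members lower under both. Of 172 values under alternatives, 156 stayed within the limits set. These are 1.5 times for counts, 10 points for the percentage of members and 1 standard error from the bounds for medians and sums. Shares of promoters had a limit from the binomial error over 63 promoters, and the neighbour correlation had a fixed limit. The limit for the member median, 0.28, is wider than the median itself of -0.13. Its change to -0.05 under TPM was thus counted as kept, so the 156 are no measure of robustness. Leaving out ATP5S and ATP5SL, rows with wide bounds or further rows of a symbol, chosen after seeing the data, kept both calls.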
